A study of Mus musculus with 3 samples.

Results

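Antioxidant and redox enzymes were examined in endothelial cells of the adult mouse renal medulla. The 60 genes were taken by gene family name: NADPH oxidase subunits, superoxide dismutases, catalase and glutathione peroxidases, peroxiredoxins, the thioredoxin system, glutathione synthesis, glutathione transferases, the NRF2 axis and metallothioneins. They stood among 19938 genes that had a probe set naming 1 gene. Where a gene had several such probe sets, the one with the highest mean was used. Family members whose probe sets named several genes, among them Gsta1, Gsta2 and Gstp2, are not among the 60, and Prdx5 and Prdx6 were not analysed here.

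The cells were GFP-positive cells, sorted by FACS from collagenase A-treated, microdissected medulla of adult male Tg(TIE2GFP)287Sato mice on the FVB/N background. In this line the promoter of Tie2 (Tek) drives green fluorescent protein. That promoter is active in endothelial cells and also in some blood cells. For every sample 2 kidneys were pooled, and the RNA of each of the 3 samples was hybridised to 1 Affymetrix Mouse Gene 1.0 ST array after 1 round of amplification. The samples are replicates 1, 2 and 3 of 1 untreated group, so no treatment, genotype or compartment could be compared, and the number of arrays limits the precision.

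Reactive oxygen species are made by NADPH oxidases and by mitochondrial respiration. Superoxide dismutases turn superoxide into hydrogen peroxide, and catalase, glutathione peroxidases and peroxiredoxins reduce the peroxide to water. Glutathione and thioredoxin supply electrons to the peroxidases and are themselves recycled with NADPH. The transcription factor NRF2, encoded by Nfe2l2, turns on many of these genes through antioxidant response elements, and KEAP1 marks it for destruction. In endothelial cells, superoxide removes nitric oxide, and the renal medulla works at a low oxygen tension and high osmolality.

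The promoters of 4 members are shown because these genes were highest in the same array, replicate 2, and because promoters of metallothioneins and of glutathione transferases are well studied for a pair of short motifs. Each is the 250 bases before the annotated start, 5′ to 3′ on the gene's strand, from RefSeq on build GRCm38.p6. The windows are Mt1 at chr8:94178839-94179088 (plus strand), Mt2 at chr8:94172368-94172617 (plus strand), Gstp1 at chr19:4037913-4038162 (minus strand) and Mgst2 at chr3:51660929-51661178 (plus strand). Capitals mark matches on either strand to the core of the antioxidant response element (TGACNNNGC or TGAGNNNGC) or of the metal response element (TGCGCNC or TGCACNC).
Mt1: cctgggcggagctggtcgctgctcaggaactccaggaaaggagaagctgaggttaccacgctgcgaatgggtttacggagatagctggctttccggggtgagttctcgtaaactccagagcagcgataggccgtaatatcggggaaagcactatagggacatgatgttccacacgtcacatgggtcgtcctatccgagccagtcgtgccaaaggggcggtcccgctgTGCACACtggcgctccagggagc
Mt2: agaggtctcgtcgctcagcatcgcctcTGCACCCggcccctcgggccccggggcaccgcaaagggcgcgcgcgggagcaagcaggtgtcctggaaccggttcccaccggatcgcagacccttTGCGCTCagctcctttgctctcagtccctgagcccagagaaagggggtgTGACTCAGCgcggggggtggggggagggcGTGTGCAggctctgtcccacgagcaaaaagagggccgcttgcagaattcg
Gstp1: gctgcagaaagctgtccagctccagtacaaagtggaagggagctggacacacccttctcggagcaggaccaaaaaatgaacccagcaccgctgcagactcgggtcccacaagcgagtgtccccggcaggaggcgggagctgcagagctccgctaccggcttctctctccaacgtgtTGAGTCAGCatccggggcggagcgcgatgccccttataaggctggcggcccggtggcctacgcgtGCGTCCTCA
Mgst2: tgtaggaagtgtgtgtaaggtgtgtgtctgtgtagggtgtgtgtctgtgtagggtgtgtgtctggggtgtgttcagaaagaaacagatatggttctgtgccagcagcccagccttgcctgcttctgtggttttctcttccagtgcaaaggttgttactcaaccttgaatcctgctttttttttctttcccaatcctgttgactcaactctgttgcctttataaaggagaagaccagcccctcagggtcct
Mt2 held 1 antioxidant and 3 metal core matches before its annotated start, Mt1 held 1 metal match, and Gstp1 held 2 antioxidant matches. Where transcription begins in these cells was not tested. In Mt2 and in the first Gstp1 match the letters also contain the AP-1 motif (TGACTCA or TGAGTCA). The printed Mgst2 bases hold TGACTCA as well, outside any core match. A further 2 metal matches in Mt1 and 1 in Mt2 lay in the 50 bases after the start, which are not printed. Mgst2 held neither the antioxidant nor the metal core in its 300-base window. Over that window, 17 of the 54 members with a promoter entry held the antioxidant core (31.5%), against 30.8% of 27025 genes. The metal core was in 16 of the 54 (29.6%), against 28.2% of all genes. The members therefore held either core about as often as genes in general, and a match in letters is not a binding site.

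Levels are the deposited log2 values, and "units" are the same values on the linear scale. A pair of fixed limits gave them a scale. The first was 100 units (log2 6.64), the study's own filter level. The second was the background limit of 7.95 (247 units), the 95th percentile of 1247 probe sets for olfactory, vomeronasal and taste receptors, genes that kidney vessels are not expected to use. A gene was called above or below a limit by limma on the 3 arrays with Benjamini-Hochberg adjustment over 19938 genes at 0.05. Probes differ in affinity, so levels are read against the limits and between arrays, and not between genes.

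Families of the redox system differed in how many members stood above the background limit. All 4 measured peroxiredoxins, all 4 glutathione synthesis and recycling genes, 5 of the 6 thioredoxin genes and 2 of the 3 superoxide dismutases were called above it. Of catalase and the glutathione peroxidases, 5 of 9 were (55.6%). The catalytic oxidase subunits were all called below the limit. In all, 55 of the 60 members were called above 100 units (91.7%), against 84.5% of all genes. Above the background limit were 36 members (60%), against 52.5% of all genes, and below it were 15, against 41.4% of all genes. Below 100 units were 2 members, Gpx5 and Gstm6, against 13.7% of all genes. The median level of the members was 8.72, against 8.15 over all genes. The shares by family ran from 1 of 5 oxidase genes to every peroxiredoxin.

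**Figure D1:**
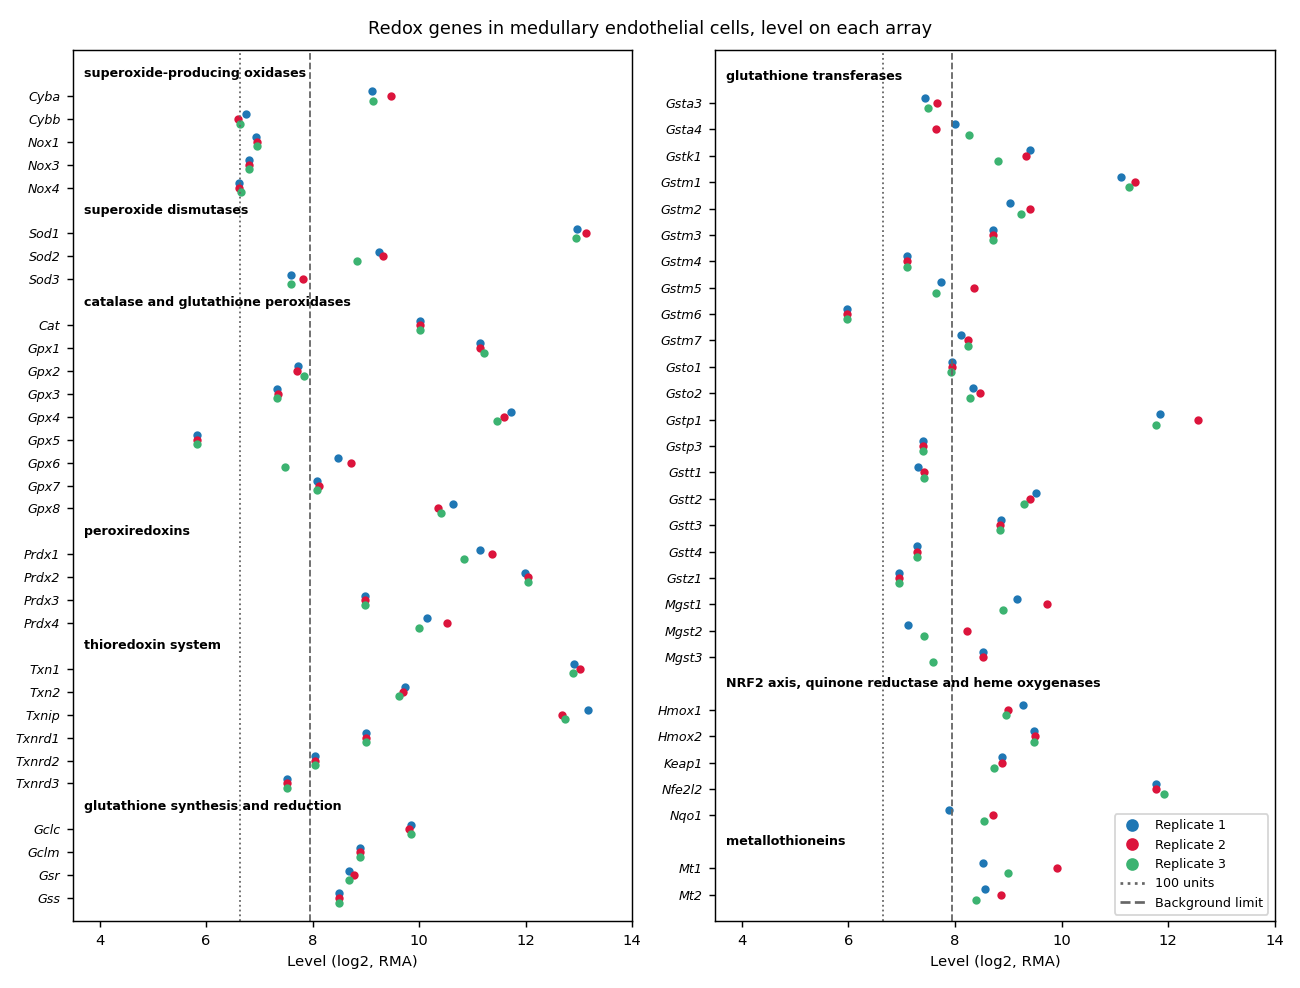
Level of each of the 60 redox genes (log2, horizontal axis) on the 3 arrays, by family, with 100 units (log2 6.64) as a dotted line and the background limit (7.95) as a dashed line. In 15 genes the 3 points coincide, while Mt1, Gpx6, Mgst2 and Mgst3 spread most widely.

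**Figure D2:**
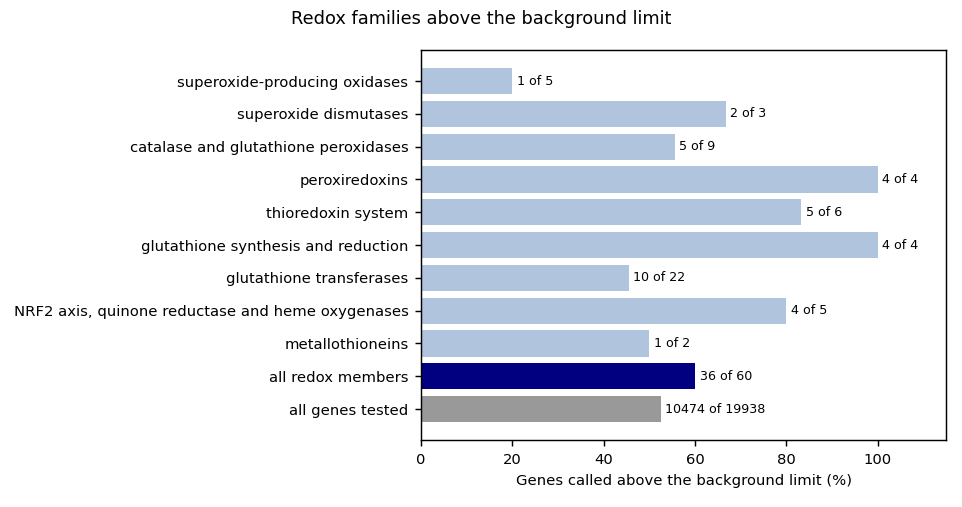
Percentage of genes in each redox family called above the background limit (limma, adjusted p under 0.05), then of all 60 members and of all 19938 genes, with the counts beside the bars. Peroxiredoxins and glutathione synthesis stand at 4 of 4, and the oxidases at 1 of 5.

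The superoxide-producing oxidases were near or under the limits except for one subunit. Cyba encodes p22phox, the membrane partner that stabilises several NOX enzymes. It read 9.12, 9.47 and 9.13 in replicates 1, 2 and 3, above the background limit by 1.29 ± 0.11 (SE, n = 3, limma adjusted p = 0.00538). Cybb, the catalytic gp91phox of phagocytes, read 6.74, 6.60 and 6.64. Nox4, the constitutively active oxidase described in kidney and vessels, read 6.61, 6.61 and 6.65. Neither could be told from 100 units (limma adjusted p = 0.725 for Cybb and 0.242 for Nox4), and both were called below the background limit. Nox1 read 6.94, 6.95 and 6.95, and Nox3, known from the inner ear, read 6.80 on all arrays. Both were called above 100 units and below the background limit.

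Of the oxidase partners in a list of related genes, 6 of 11 measured genes were above the background limit (54.5%, against 52.5% of all genes) and 5 below. The first genes of that list were Ncf1 (p47phox) at 7.96 and Noxo1, the NOX1 organiser, at 8.00, both just above the limit, and Ncf4 (p40phox) and Noxa1, the NOX1 activator, at 7.14 and 7.67 below it. Well above it were Rac1, the small GTPase that activates NOX enzymes, at 11.86, Xdh, xanthine dehydrogenase, at 10.12, and Poldip2, described as a NOX4 partner, at 9.10. The catalytic oxidase subunits were thus measured under the background limit, whereas Cyba and a share of the partners close to that of all genes were above it.

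Of the superoxide dismutases, the intracellular enzymes were above the background limit. Sod1 (copper-zinc enzyme) read 12.96, 13.13 and 12.95, or 8262 units. Sod2, the mitochondrial manganese enzyme, read 9.25, 9.32 and 8.83, above the background limit by 1.19 ± 0.14 (SE, n = 3, limma adjusted p = 0.011). Sod3, the secreted enzyme of vessel walls, read 7.59, 7.82 and 7.59, was under the background limit on every array, and missed the call (limma adjusted p = 0.0518). Replicate 2 was the highest for all 3 genes.

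Among the peroxide-reducing enzymes, Cat (catalase, in peroxisomes) read 10.02 on all arrays. Gpx1, the abundant cytosolic selenoenzyme, read 11.14, 11.14 and 11.22. Gpx4, which reduces lipid peroxides in membranes, read 11.73, 11.60 and 11.47. Gpx8, an enzyme of the endoplasmic reticulum, read 10.64, 10.35 and 10.40. Gpx7, of the same compartment, read 8.08, 8.11 and 8.08, only 0.14 above the background limit. These 5 genes were called above it.

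Gpx2, best known from gut epithelium, read 7.73, 7.70 and 7.84, and Gpx3, the plasma form made by kidney tubules, read 7.33, 7.34 and 7.33. Both were above 100 units and below the background limit. Gpx5, the epididymal form, read 5.83 on every array, below both limits. Its neighbour on chromosome 13, Gpx6, known from olfactory tissue, read 8.48, 8.72 and 7.48. Its values lay on both sides of the background limit, 2.36-fold between the highest and the lowest array, with no call (limma adjusted p = 0.511).

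The peroxiredoxins, thiol peroxidases that use thioredoxin, were all above the background limit. Prdx1 (cytosolic) read 11.14, 11.37 and 10.85, and Prdx4, of the endoplasmic reticulum, read 10.14, 10.53 and 9.99. In both, replicate 2 was highest and replicate 3 lowest. Prdx3, of mitochondria, read 8.99 throughout. Prdx2, the other cytosolic form, read 11.98, 12.05 and 12.04 from its brighter probe set. That set lies in the array's numbering among genes of chromosome 1, whereas Prdx2 lies on chromosome 8. The probe set numbered among chromosome 8 genes read 8.71, 8.81 and 8.58, still above the background limit.

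The same difference between probe sets changed a call in Gstm3. Its brighter set, 8.72 on every array, was numbered among chromosome 10 genes, and the set numbered among genes of chromosome 3, where Gstm3 lies, read 7.50 on every array. The first is above the background limit and the second below. For Prdx1 the brighter set was the one on the gene's own chromosome (4), and a set numbered among chromosome 16 genes read 10.54, 10.83 and 10.31. Both Gpx4 sets, with means of 11.60 and 11.52, were numbered among chromosome 10 genes, where Gpx4 lies. What the sets off the chromosome measure was not tested.

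**Figure D3:**
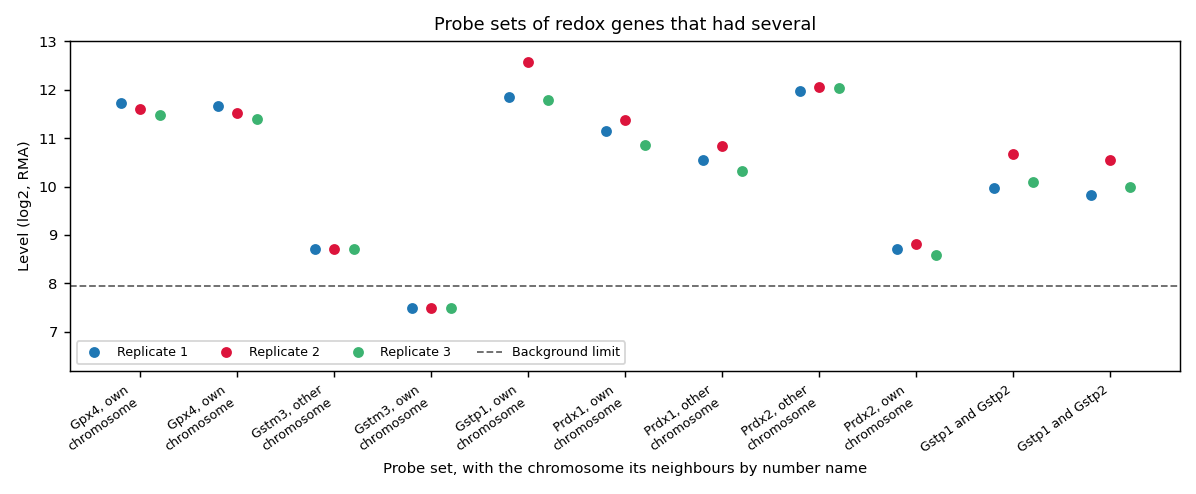
Level (log2) on the 3 arrays of each probe set of the 4 members with several sets, marked by whether its neighbours in the array's numbering name genes of the gene's own chromosome, with Gstp1 and the 2 sets that name Gstp1 and Gstp2 together. The Gstm3 sets fall on opposite sides of the background limit (dashed), and every Gstp and Prdx1 set has its highest point in replicate 2.

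In the thioredoxin system, Txn1, the cytosolic thioredoxin, read 12.90, 13.01 and 12.88 (7815 units), and Txn2, the mitochondrial one, read 9.73, 9.70 and 9.62. The reductases that recycle them were Txnrd1 at 9.00 and Txnrd2, the mitochondrial reductase, at 8.05, both above the background limit, and Txnrd3, best known from testis, at 7.52, below it. These reductases had the same value on every array. Txnip, a glucose-responsive protein that binds and inhibits thioredoxin, read 13.17, 12.69 and 12.74 (7465 units). Replicate 1 was the highest, 1.40-fold over the lowest.

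Genes for glutathione itself were all above the background limit. Gclc, the catalytic subunit of the rate-limiting ligase, read 9.85, 9.80 and 9.85, and its modifier Gclm read 8.88 on all arrays. Gss, the second synthetic enzyme, read 8.49 on all arrays, and the reductase Gsr read 8.69, 8.77 and 8.69. Their range between arrays was at most 1.06-fold. In the list for glutathione turnover and transport, 8 of 11 measured genes were above the background limit (72.7%, against 52.5% of all genes) and 3 below. Its first genes were Ggt5, a gamma-glutamyl transferase that cleaves glutathione conjugates, at 7.96, Ggct, the cyclotransferase, at 8.57, Oplah, the oxoprolinase, at 7.99, and Chac1, which degrades glutathione in the cytosol, at 8.62.

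Glutathione transferases, which join glutathione to electrophiles, lay on both sides of the background limit, as did genes in general. Of 22 genes, 10 were above it (45.5%, against 52.5% of all genes), 7 below (against 41.4% of all genes) and 5 uncalled. Gstp1 read 11.85, 12.57 and 11.78, and Gstm1 read 11.11, 11.37 and 11.26. The other genes called above were Gstm2 (9.04, 9.41 and 9.24), Gstm3 by its brighter set, Gstm7 (8.12, 8.24 and 8.24), Gsto2 (8.34, 8.47 and 8.28), Gstt2 (9.53, 9.41 and 9.30), Gstt3 (8.86, 8.84 and 8.84), the kappa-class enzyme Gstk1 (9.41, 9.34 and 8.80) and the membrane-bound Mgst1 (9.17, 9.72 and 8.90).

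Genes of one cluster lay on both sides of the limits. The Gstm genes sit near each other on chromosome 3, and Gstm6 read 5.98 on all arrays, below 100 units, while Gstm4 read 7.10 throughout and Gstm5 read 7.73, 8.36 and 7.65. In the Gstt cluster of chromosome 10, Gstt1 read 7.30, 7.42 and 7.42 and Gstt4 read 7.28 on all arrays, both below the background limit, against Gstt2 and Gstt3 above it. Gstp3, near Gstp1 on chromosome 19, read 7.39 on every array. Related copies may share probes, which was not tested here, so the split between copies of a cluster is uncertain.

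The remaining transferases were low or uneven. Gsta3 read 7.43, 7.67 and 7.50, and Gstz1, the maleylacetoacetate isomerase of tyrosine breakdown, read 6.95 on every array. Gsto1 read 7.94, 7.94 and 7.92 and lay at the background limit. Gsta4, which clears 4-hydroxynonenal, read 8.00, 7.65 and 8.26, the only member with an SD of at least 0.3 whose lowest value was in replicate 2. Mgst2 read 7.11, 8.22 and 7.42, a 2.16-fold range, and Mgst3 read 8.52, 8.52 and 7.59, a 1.90-fold range. Neither was called against the background limit, and Mgst2 was not called against 100 units either (limma adjusted p = 0.0834).

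Probe sets that name both Gstp1 and Gstp2 had the same highest array as Gstp1 and not the same lowest one. One read 9.96, 10.67 and 10.10 and the other 9.83, 10.55 and 10.00, so that replicate 2 was the highest and replicate 1 the lowest on both, whereas Gstp1 was lowest in replicate 3. The 4 probe sets naming Gsta1 and Gsta2 with 2 predicted genes had means of 6.02, 6.34, 7.25 and 7.48, all under the background limit. The alpha class was therefore at or under that limit in every probe set measured, apart from 2 arrays of Gsta4.

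In the NRF2 axis, Nfe2l2 read 11.77, 11.77 and 11.92 (3622 units) and Keap1 read 8.89, 8.89 and 8.73. The heme oxygenases, which break heme down to biliverdin, iron and carbon monoxide, were both above the background limit, with Hmox1, the inducible form, at 9.28, 8.99 and 8.96 and Hmox2, the constitutive form, at 9.49, 9.51 and 9.49. Nqo1, a quinone reductase and a classical NRF2 target, read 7.89, 8.72 and 8.55. Replicate 1 lay under the background limit and the others above it, and the gene was not called (0.44 ± 0.24, SE, n = 3, limma adjusted p = 0.198).

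In the list of NRF2 partners, repressors and targets, 13 of 14 were above the background limit (92.9%, against 52.5% of all genes). Cul3 and Rbx1, parts of the ubiquitin ligase that acts with KEAP1, had means of 12.22 and 11.05. Bach1, a repressor at the same elements, and Maff, a small MAF partner, had means of 9.86 and 9.37. Slc7a11, the cystine transporter that feeds glutathione synthesis and a known NRF2 target, read 6.04, 6.01 and 6.01, and was the single gene of the 7 pathway lists called below 100 units. Slc7a11 was the only gene of this list called below the background limit. Cbr1, Ephx1 and Abcc1, also of this list, had means of 9.14, 11.29 and 8.80 and were called above it. Nqo1, outside this list, was under that limit in replicate 1 alone.

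The metallothioneins, small cysteine-rich proteins that bind zinc and scavenge radicals, lie beside each other on chromosome 8. Mt1 read 8.52, 9.92 and 8.99, a 2.65-fold range and the widest SD of all members (0.72). Mt2 read 8.57, 8.87 and 8.40. Both were highest in replicate 2. Mt2 was called above the background limit (0.66 ± 0.13, SE, n = 3, limma adjusted p = 0.03). Mt1, at a mean of 9.14 and above the limit on every array, was not called (1.20 ± 0.39, SE, n = 3, limma adjusted p = 0.0828).

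Other supporting pathways also had more genes above the background limit than below it. Of all genes, 52.5% were above it and 41.4% below. In the list of glutaredoxins, sulfiredoxin, sestrins and methionine repair, 12 of 15 were above (80%) and 2 below. Glrx, the cytosolic glutaredoxin, had a mean of 7.74, below the limit, and Glrx2, Glrx3 and Glrx5, the others of that family, had means of 11.05, 9.25 and 9.38. For NADPH supply, 8 of 11 measured genes were above (72.7%) and 3 below. Pgd of the pentose phosphate pathway was at 9.61, and Tkt and Taldo1 of its later steps were at 8.36 and 8.71. Me1, malic enzyme, was at 7.95, on the limit, and is counted among the 8 above.

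For selenoproteins, which include some of the glutathione peroxidases and the thioredoxin reductases above, a list of synthesis genes and other selenoproteins was used. Of its genes, 13 of 14 were above the background limit (92.9%, against 52.5% of all genes). Sephs2, Pstk and Secisbp2, needed to make and insert selenocysteine, had means of 8.38, 8.29 and 8.75, and Sepsecs, the last enzyme of that synthesis, was at 7.94. In heme and iron handling, 9 of 14 were above (64.3%, against 52.5% of all genes) and 5 below. The biliverdin reductases Blvra and Blvrb, which act after the heme oxygenases, had means of 9.10 and 8.69, and the ferritin chains Fth1 and Ftl1 had means of 13.43 and 11.14. Over all 7 lists, 69 of 90 measured genes were above the background limit (76.7%), against 52.5% of all genes.

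A larger share of the members than of all genes varied between the arrays. The same value on all arrays (a range under 0.0005) was found in 15 members (25%), against 46.3% of all genes. An SD of 0.3 or more was found in 10 members (16.7%), against 6.08% of all genes. Among genes with a mean at or above the background limit, the same value occurred in 17.1% of 41 members and 34.4% of 11229 genes, and an SD of 0.3 or more in 19.5% and 9.46%. Of the 10 members, 7 were transferases (31.8% of 22), and the others were Gpx6, Nqo1 and Mt1. Without the transferases, 3 of 38 members (7.89%) had an SD of 0.3 or more, close to the share of all genes. The same value was found in 9 of those 38 (23.7%).

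Replicate 2 was often the highest array among the members, and replicate 3 often the lowest. These are separate counts, and a shared order of all 3 arrays was not counted. Of 45 members with any spread, replicate 2 was the highest in 25 (55.6%), against 23.2% of 10706 genes with spread. Replicate 3 was the lowest in 19 (42.2%), against 21.2% of all genes. Replicate 1 was the highest in 9 and replicate 3 in 5. The median over these 45 of replicate 2 minus the mean of the other arrays was 0.08, against 0.00 over all genes, and that of replicate 3 was −0.09, against 0.01. The shift is small for most genes and reached 1.17 in Mt1 and 0.96 in Mgst2. How far replicate 3 stood out as the lowest depended on the normalization. After median centring it was the lowest in 58.8% of 34 members and 41.7% of 6348 genes with a range of at least 0.1.

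Replicate 2 was the highest for all 3 superoxide dismutases, for each of the 3 peroxiredoxins with spread, for both metallothioneins and for 9 of 16 transferases with spread. Without the transferases, it was the highest in 16 of 29 (55.2%). Genes of the 7 pathway lists did not show this: replicate 2 was the highest in 11 of 56 (19.6%), and in none of the 13 genes with spread in the glutaredoxin list. Replicate 3 was the lowest in 20 of those 56 (35.7%), among them 7 of 10 genes of the selenoprotein list. As the members share families and neighbouring copies, they are not independent. With 1 array for each sample, no test of these array differences was made.

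**Figure D4:**
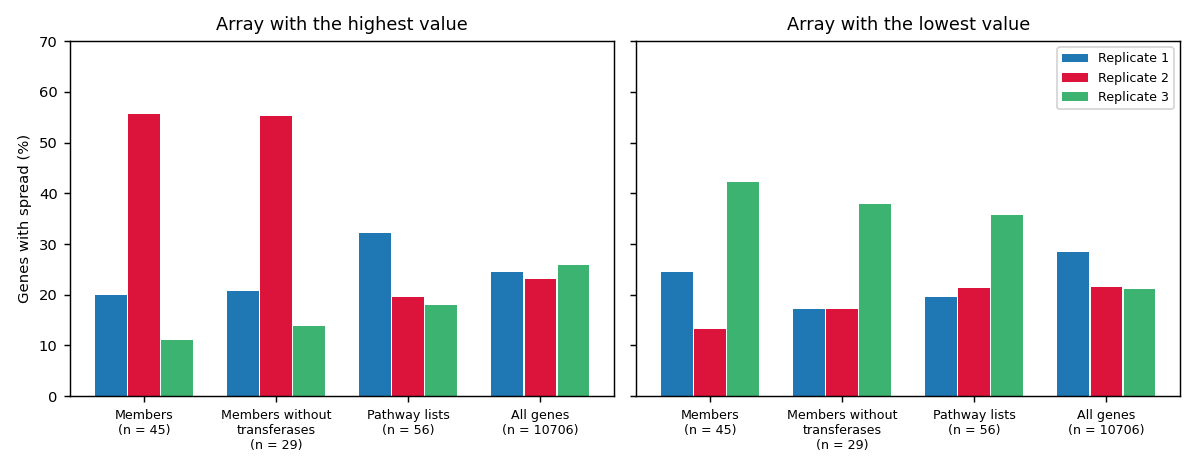
Percentage of genes with spread for which each array gave the highest (left panel) or the lowest value (right panel), in the members, the members without transferases, the 7 pathway lists and all genes. Tied arrays are left out, so bars of a group need not add to the whole. Replicate 2 is the highest in 55.6% of the members and 23.2% of all genes.

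**Figure D5:**
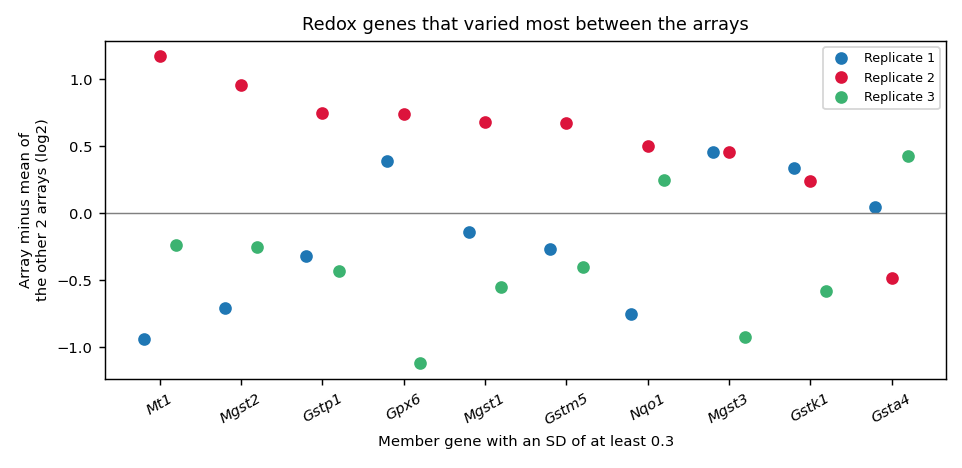
Each array minus the mean of the other 2 arrays (log2, vertical axis) for the 10 members with an SD of at least 0.3. Mt1 and Mgst2 have replicate 2 highest by 1.17 and 0.96. Gstk1 has replicate 1 highest, Mgst3 has replicates 1 and 2 level, and Gsta4 alone has replicate 2 lowest.

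Cell type markers were set beside these array differences. All 10 endothelial markers were above the background limit, summing to 47491, 41895 and 42097 units in replicates 1, 2 and 3, and 7 of the 9 with spread were highest in replicate 1. Of 10 myeloid markers, 2 were above the background limit and 8 below, and they summed to 1777, 1834 and 1790 units. Lyz2, a myeloid lysozyme, was highest in replicate 2 (7.15, 7.63 and 7.28), and it too was below the limit. The 9 proximal tubule markers, 3 of them above the background limit, summed to 1671, 1675 and 1675 units. The transporters Slc34a1, Slc5a2 and Slc22a8 were the ones above it, at 8.40, 8.41 and 8.04, and the lowest of the list was Slc13a1 at 5.39. No value is at 0 on this scale.

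The other medullary epithelium was not even. The 5 measured thick ascending limb markers, 2 above the background limit and 1 below, summed to 4969, 2524 and 1852 units. Umod (uromodulin) read 11.61, 10.40 and 9.49, and the cotransporter Slc12a1 read 9.68, 8.07 and 7.81. Egf read 8.76, 8.16 and 8.16, and Kcnj1 read 8.84 on every array. Cldn16 went the other way, at 7.07, 7.34 and 7.34. The 7 collecting duct markers, 4 above the background limit, summed to 2311, 2281 and 2043 units. The 6 smooth muscle and pericyte markers and the 3 measured red cell markers each had 1 above it. Of the thick ascending limb markers with spread, 3 of 4 were highest in replicate 1 and none in replicate 2. Of the collecting duct markers with spread, 2 of 3 were highest in replicate 2 and 1 in replicate 1. The part of these cells in the members' levels was not tested.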

How the data were processed

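RNA of 3 samples was measured on 1-colour arrays. Deposited levels of probe sets are in log2, a scale read from their range (3.55 to 14.43). The labels name Affymetrix Expression Console, and the authors' text names RMA, in which background is corrected, arrays share 1 distribution and median polish summarises the probes. The sources used here do not say whether the 100-unit filter was set on the same scale. Array medians differed by at most 0.03.

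Of 35557 probe sets, 21789 named 1 gene, 1621 several and 12147 were unnamed in the platform annotation. Names were updated by Entrez identifier to RefSeq symbols of GRCm38.p6, with 21698 matched (99.6%). No build for the array is named in the sources used here.

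limma 3.58.1 (R 4.3.3) tested each level minus a limit in an intercept-only model (lmFit and eBayes, two-sided), a step tested on simulated data. The same value on all arrays, which median polish can return, makes the residual spread of such a gene 0. Its error then comes from the eBayes prior alone, so its call says only on which side of the limit it lay. The p-values test a mean level against a limit, with an error from the spread between these samples and that prior. Tables and figures were made with Python 3.11.15, pandas 2.3.3 and matplotlib 3.10.9. Members and lists were chosen with earlier results of these data known. Every member is named. Of each pathway list, the first 4 measured genes and any called below 100 units are named, with others chosen after their values were seen. Values per array are given where the SD was at least 0.3, where a member was below 100 units or its calls differed between the limits, for Mt1 and Mt2, and for others where space allowed. A probe set's chromosome was read from the 5 named neighbours on each side in the array's numbering. Alternatives changed the limits, the probe set, the normalization, the eBayes prior and trend, and left out each replicate.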

Additional observations from a re-analysis of the deposited data

Results flagged for a closer look

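Signal above the background limit was present in probe sets outside the 60 members and their counts. Both probe sets that name Gstp1 and Gstp2 together, left out of the members because they do not separate the copies, were above 7.95 on every array. Their means were 10.24 ± 0.37 and 10.13 ± 0.38 (SD, n = 3), or 1211 and 1118 units, and both were highest in replicate 2.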

How the results depend on the processing

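Of the 60 members, 34 kept their direction and call against the background limit under every alternative that kept this limit. With that limit at the 99th percentile, 24 members were above it and 23 below (36 and 15 at the 95th). Pathway genes above and below numbered 41 and 42 (69 and 20 at the 95th), and 6007 genes in all were above (10474 at the 95th). At the 95th, the prior from genes with 3 different values left 62 pathway genes above and 18 below, and 9904 genes in all above. With a limit of 50 units in place of 100, 0 members, 0 pathway genes and 996 genes were below by limma (no member or pathway gene had a mean under 50 units, so none was below at an unadjusted p either); with 200 units, 13, 15 and 6566 were. At 100 units these counts were 2, 1 and 2723. Leaving out 1 replicate at a time gave 25 to 27 members above and 13 to 14 below the background limit, 44 to 47 above and 2 to 3 below 100 units, and 18 to 21 with the same value. For pathway genes it gave 55 to 59, 18 to 19, 83 to 85 and 1 to 2 (2 without replicate 3), and for all genes 8535 to 8731, 7629 to 7846, 15485 to 15703, 2555 to 2596 and 10934 to 11602. These fits have fewer samples, and 13, 12 and 12 members lost the call without replicates 1, 2 and 3.

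Direction against the background limit reversed in Gstm3 with its dimmer probe set, which is also the one on its own chromosome (−0.44), in Gsta4 without replicate 3 (−0.12, with a highest value of 0.19 without replicate 2) and in Gstm5 without replicates 1 and 3 (0.05 and 0.10, with a lowest value of −0.25 without replicate 2); the cause was not tested in Gsta4 and Gstm5, neither of which was called. With the prior from genes with 3 different values, Gpx2, Gpx7 and Txnrd2 lost the call (limma adjusted p = 0.057, 0.0877 and 0.164) and Mt1 and Sod3 gained it (0.0208 and 0.0309). Sod3 and Mt1 also gained it after quantile normalization (0.0193 and 0.0366) and median centring (0.0179 and 0.0351). The choice of the chromosome's probe set and the count of arrays below were made after seeing the data. Among 34 members with a range of at least 0.1, replicate 2 was the highest in 20 as deposited, 20 after quantile normalization and 21 after median centring, against 26.4%, 31.6% and 32.1% of 6348 genes. Replicate 3 was the lowest in 18, 18 and 20 of these members under the same settings. The shares of all genes were 28.1%, 34.1% and 41.7%. No paired analysis was possible because there is 1 group.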
